A study of Danio rerio with 47 samples.

Results

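The Wnt rows of an expression array were compared between zebrafish trunks with few germ cells and wild-type trunks. Members were all rows whose name begins with a symbol of a Wnt ligand (wnt), a Frizzled receptor (fzd), the co-receptors lrp5 and lrp6, the inhibitors dkk and sfrp, the R-spondins (rspo), axin, dishevelled (dvl), naked cuticle (nkd), β-catenin (ctnnb) or the nuclear factors tcf7 and lef1. This rule took 70 of the 31475 rows and used no measured value. There were 23 ligands, 14 receptors, 9 secreted inhibitors, 4 R-spondins, 11 cytoplasmic effectors and 9 nuclear effectors.

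Wnt proteins are secreted ligands that bind Frizzled receptors and, for the canonical branch, the co-receptors Lrp5 and Lrp6. Binding stops the axin-based complex from destroying β-catenin, which then enters the nucleus and acts with Tcf and Lef factors, while other branches steer cell polarity and movement without β-catenin. In zebrafish the juvenile gonad can hold early oocytes before it becomes an ovary or a testis, and canonical Wnt signalling has been linked to the ovarian course.

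The study measured developing trunk regions at 14 and 22 days post fertilization (dpf). The depleted fish were dnd morphants, injected at the one-cell stage with a morpholino against dnd, a gene that germ cells need to survive, and sorted at 24 h post fertilization for a low count of 1 to 9 primordial germ cells, so some germ cells remained. The controls were wild type with a high count. All were reared at 28 °C, and 9 morphant arrays stood against 14 wild-type arrays at 14 dpf and 10 against 14 at 22 dpf. A trunk holds many tissues, so fewer cells of a type and less RNA per cell cannot be told apart.

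The values are log2 intensities of 1-colour arrays, with array medians between 7.26 and 7.70. Within groups 6 pairs of arrays deviated from their group almost alike (r from 0.765 to 0.920, against at most 0.534 for the other pairs), 1 among the 14 dpf morphants, 2 among the 22 dpf morphants and 3 among the 22 dpf wild types, and may not be independent. The row of dnd, which germ cells themselves express, had a median of 5.86 in morphants and 7.26 in wild type at 14 dpf (limma, adjusted p = 0.295). At 22 dpf dnd was lower in morphants than in wild type, by a log2 difference of -3.76 (limma, adjusted p = 2.78e-05). The germ cell helicase ddx4, in the row vasa, was lower at both ages, by a log2 difference of -2.84 ± 0.57 (SE) at 14 dpf and -4.19 ± 0.56 at 22 dpf (limma, adjusted p = 0.00426 and 9.1e-07). Its groups overlapped at both ages, and the morphant arrays with title numbers 1 and 2 at 22 dpf kept a mean of 15 oocyte markers of 8.08 and 7.99, against 5.81 to 6.44 on the other 8. Mean levels of 16 skeletal muscle markers were between 13.8 and 13.9 in the 4 groups.

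Few Wnt rows were called at either age. At 14 dpf 2 of 70 members passed an adjusted p below 0.05, both higher in morphants, against 2.48% of all rows (1.15% higher, 1.33% lower). Of all rows called 418 of 780 were lower, and 328 of 821 when each array was centred on its median. These were fzd8a and wnt4a, and neither was called in the 22 dpf comparison. At 22 dpf 1 member passed, the ligand wnt8-2, which was lower in morphants, against 3.49% of all rows (0.591% higher, 2.89% lower). The share of members called, 2.86% and 1.43%, was thus near or below that of all rows. Test and adjustment were limma on the 4 group means with Benjamini-Hochberg adjustment over all rows, and each difference is a log2 value, morphants less wild types, given with its standard error. No member had groups that did not overlap, which held for 0.0477% of all rows at 14 dpf and 0.0508% at 22 dpf.

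**Figure D1:**
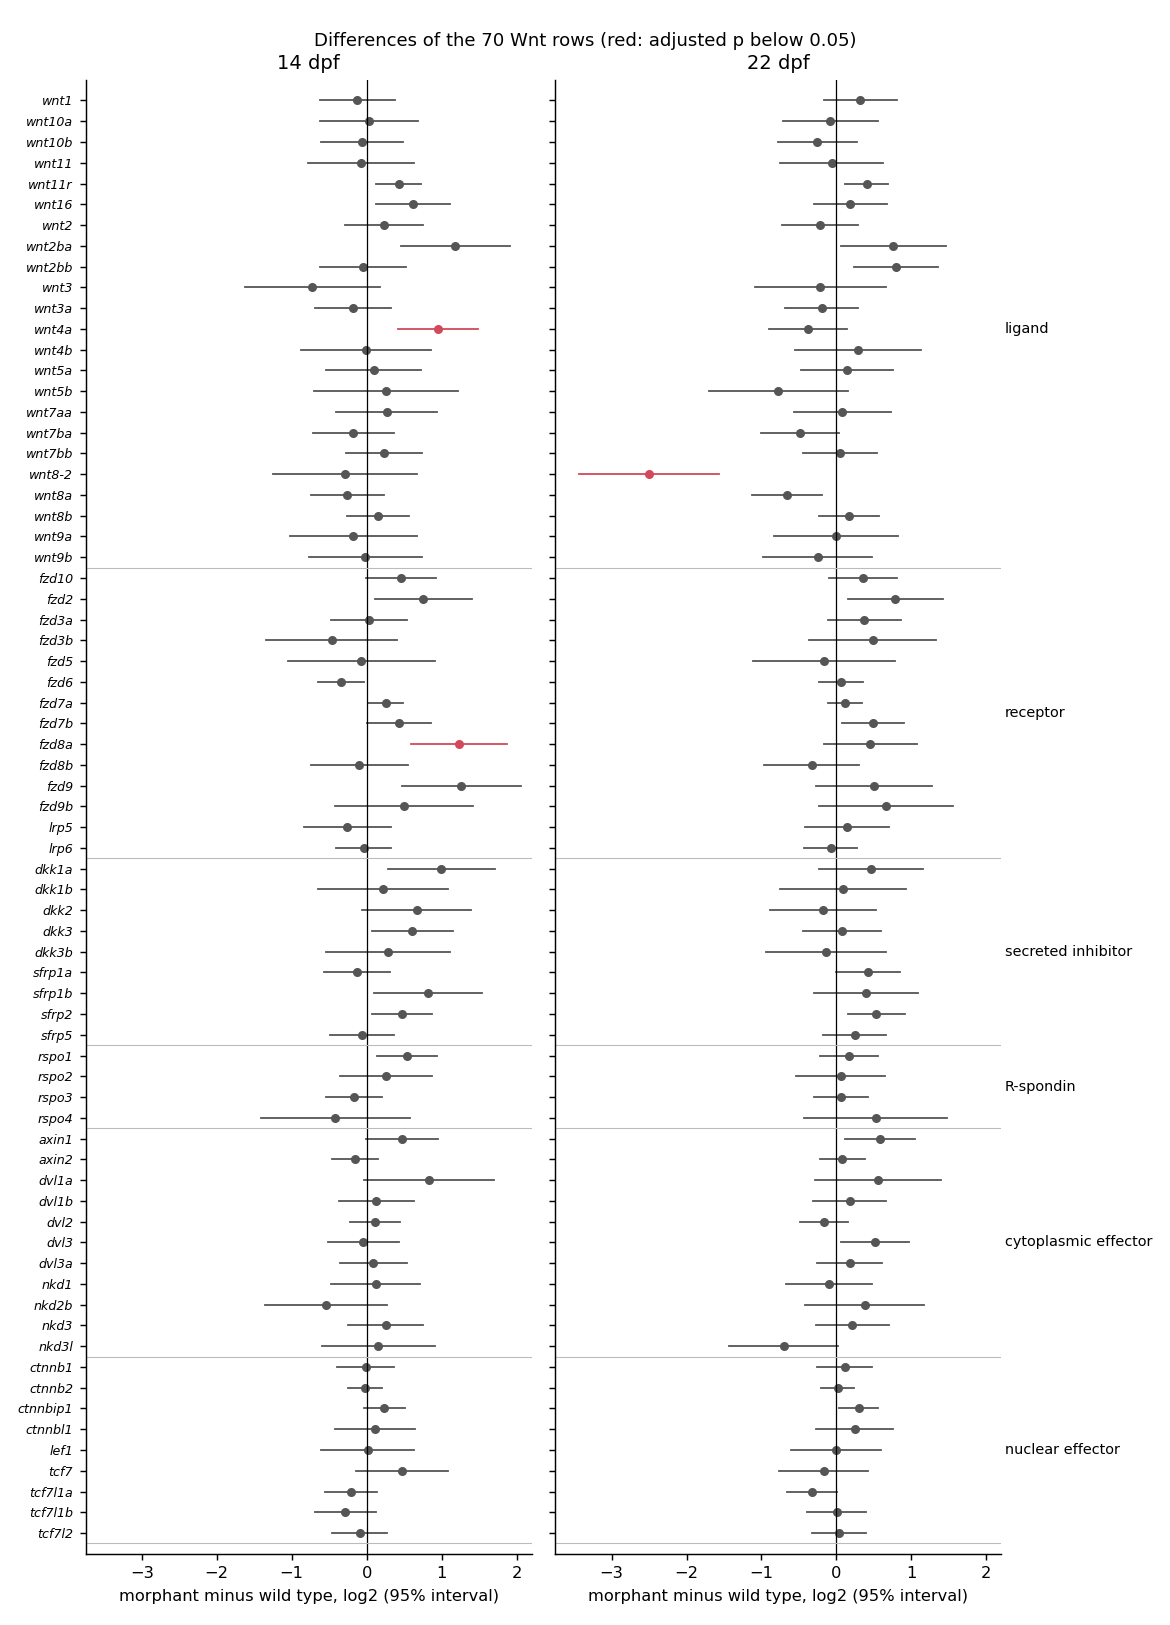
Log2 difference of morphant minus wild type with its 95% interval for each of the 70 Wnt rows at 14 dpf (left) and 22 dpf (right), ordered by role. The 3 red rows passed an adjusted p below 0.05: fzd8a and wnt4a at 14 dpf, to the right of 0, and wnt8-2 at 22 dpf, at -2.50.

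Among the ligands, wnt8-2 had the most extreme difference of any member. Zebrafish carry wnt8-2 and wnt8a side by side on chromosome 14 in the GRCz12tu annotation, and wnt8 ligands are known for patterning the posterior mesoderm and neural tissue of the embryo. In the 22 dpf wild types wnt8-2 ranged from 5.17 through a median of 7.27 to 10.68, and in the morphants from 4.22 through 5.32 to 5.75. All 10 morphants lay below the wild-type median, and 11 of 14 wild types lay above the highest morphant, while the other 3 lay within the morphant range. The difference was -2.50 ± 0.46 (limma, adjusted p = 0.000221). The morphant mean of 5.19 lies in the low part of the scale, where signal over background is unknown, so no fold is given. It was -2.07 among title numbers up to 12 (4 morphants, 8 wild types) and -2.83 among the higher numbers (6 and 6), and -2.57 without the morphant arrays 1 and 2 (limma, adjusted p = 0.000612).

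At 14 dpf wnt8-2 was dim in both groups. It ran from 4.50 through 4.99 to 6.73 in morphants and from 4.65 through 5.52 to 6.95 in wild types, so the groups overlapped widely, and the difference was -0.29 (95% interval -1.25 to 0.67). The effect at 22 dpf minus that at 14 dpf was -2.21 ± 0.67 (limma, adjusted p = 0.119), which did not pass. The neighbouring wnt8a had values from 4.35 through 4.73 to 5.30 in the 22 dpf morphants and from 4.51 through 5.48 to 6.47 in the wild types. Although all 10 morphants lay below the wild-type median, its difference of -0.66 (95% interval -1.13 to -0.19) did not pass (limma, adjusted p = 0.128). The wnt8a medians of 4.73 and 5.48 lie in the low part of the scale, where signal over background is unknown. Whether probes of wnt8-2 and wnt8a read each other's transcript was not tested.

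**Figure D2:**
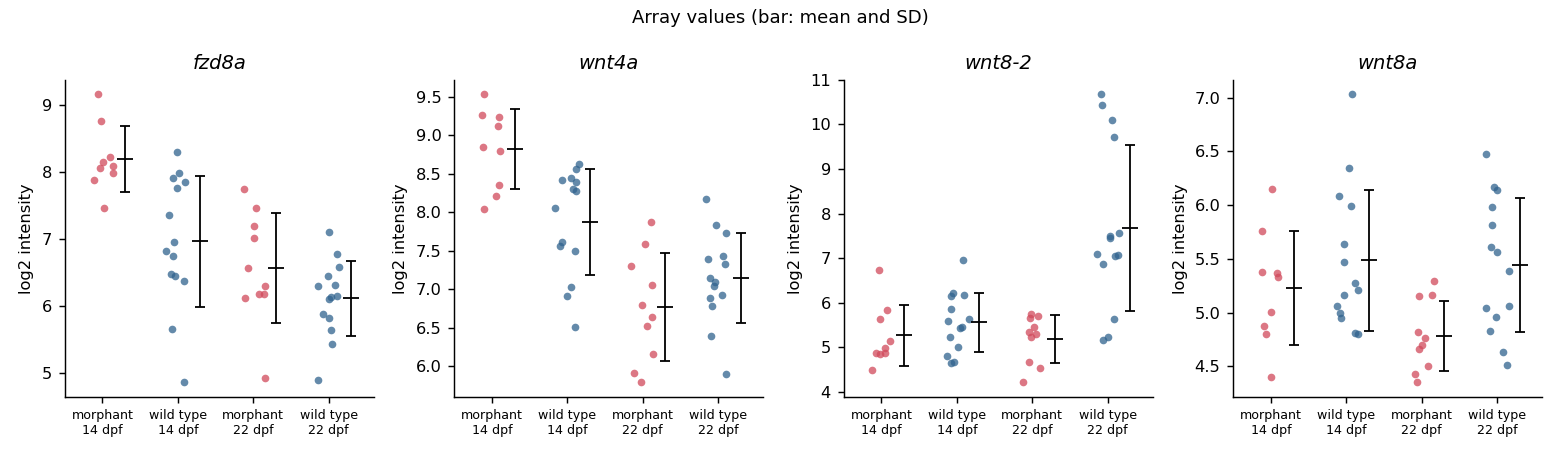
Log2 intensity on each array (points) with the group mean and SD (bars) for fzd8a, wnt4a, wnt8-2 and wnt8a in morphants (red) and wild types (blue) at 14 and 22 dpf. For wnt8-2 the 22 dpf wild types spread from 5.17 to 10.68 while the morphants stay between 4.22 and 5.75.

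The spread of wnt8-2 among the 22 dpf wild types ran with oocyte transcripts. The mean log2 level of 15 oocyte markers ranged from 6.50 to 12.89 on these arrays. The 4 arrays with the highest marker means, 11.54 to 12.89, had wnt8-2 at 9.73, 10.11, 10.44 and 10.68. The values 10.44 and 10.68 came from an alike pair (r = 0.920). The 2 arrays with the lowest means, 6.50 and 6.74, had wnt8-2 at 5.22 and 5.63, inside the morphant range. With alike pairs averaged (n = 11), Pearson's r was 0.930 and Spearman's rho 0.964 (permutation p = 2e-05 for both, the smallest that the 100000 resamples give), and r was 0.958 without the 2 samples farthest from the median marker mean. Over all 14 arrays r was 0.917 and rho 0.952 (adjusted permutation p = 4e-05 over the 2 wnt8 rows). It was 0.912 among title numbers up to 12 (n = 8) and 0.952 among the higher numbers (n = 6). For wnt8a r was 0.384 (rho 0.398, n = 14, permutation p = 0.172 and 0.159), and 0.277 without the 2 farthest arrays. Within title numbers it differed, with 0.813 (rho 0.881) up to 12 (n = 8) and -0.156 (rho -0.029) above (n = 6). This relation was looked for after wnt8-2 had been seen to vary. The mean of 16 germ cell markers varied on these arrays too, from 7.56 (wnt8-2 at 5.22) to 9.88 (wnt8-2 at 10.68). The 4 arrays with the highest germ cell means, 9.43 to 9.88, were the same 4 that had the highest oocyte marker means. The array with wnt8-2 at 5.17 had a germ cell mean of 9.19 and an oocyte marker mean of 8.97. The relation of wnt8-2 to germ cell markers was not tested.

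Fitted over all rows, the slope of wnt8-2 on the oocyte markers was 0.88 ± 0.10 log2 units per unit (limma, adjusted p = 3.74e-05), and 0.85 with alike pairs averaged (limma, adjusted p = 0.000382). It was the 1 of 70 members whose slope passed, against 3.33% of all rows (1.78% with pairs averaged). On the morphant arrays 1 and 2, an alike pair that may not be independent, oocyte markers stayed near 8. There wnt8-2 was 5.66 and 5.29, within the range of the other 8 morphants. The wild-type arrays 7 and 8, also an alike pair, had marker means of 8.89 and 8.97 and wnt8-2 at 6.88 and 5.17. Whether the morphant pair departed from the wild-type slope was not tested. Over the wild types 196 other rows had an r above 0.9 with wnt8-2. Those most like it included kpna7, an importin (r = 0.973), and zp3c, an egg coat protein (r = 0.966), both named after their values were seen. Of the oocyte markers themselves 15 of 15 were called lower in the 22 dpf morphants (score difference -3.60), against 2.89% of all rows. Also called lower were 14 of 16 germ cell markers (-2.51), 4 of 6 ovarian somatic markers (-1.26) and 2 of 12 testicular somatic markers (-0.10). The ovarian list left out rspo1 because it is a member, and rspo1 had a difference of 0.17. The part of these markers in the wnt8-2 difference was not tested.

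**Figure D3:**
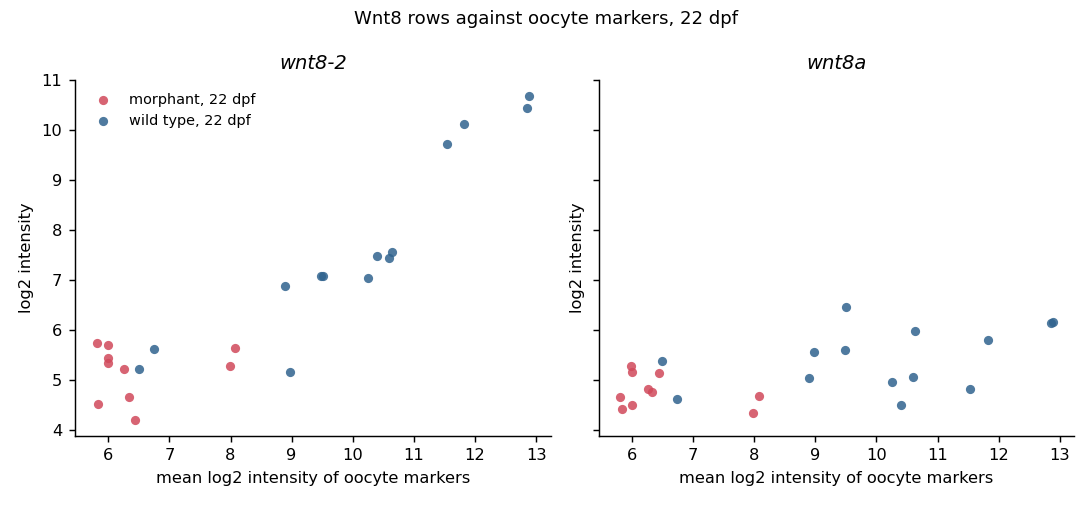
Log2 intensity of wnt8-2 (left) and wnt8a (right) against the mean log2 intensity of 15 oocyte markers on each 22 dpf array, morphants in red and wild types in blue. Wild-type wnt8-2 climbs from 5.22 at a marker mean of 6.50 to 10.68 at 12.89, and wnt8a stays between 4.51 and 6.47.

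wnt4a, a ligand whose mammalian counterpart is needed for ovary development, rose in the 14 dpf morphants. Values ran from 8.04 through 8.84 to 9.53 there and from 6.51 through 8.16 to 8.63 in wild types. Of 9 morphants 6 lay above every wild type, and 6 of 14 wild types lay below every morphant. The morphants above every wild type included arrays 5 and 13, an alike pair that may not be independent. This pair is split between the lower and higher title numbers, so the differences within these may not be independent either. The difference was 0.95 ± 0.27, or 1.93-fold (limma, adjusted p = 0.0419), and 0.80 and 1.09 within the lower (5 morphants, 7 wild types) and higher (4 and 7) title numbers. The call was lost with alike pairs averaged (0.88, adjusted p = 0.0943), with array weights (1.00, adjusted p = 0.0537), with the 14 dpf arrays fitted alone (adjusted p = 0.095), and in 11 of 47 fits that left out 1 array.

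At 22 dpf wnt4a did not keep that direction. Morphants ran from 5.79 through 6.72 to 7.88 and wild types from 5.90 through 7.11 to 8.16, with a difference of -0.38 (95% interval -0.90 to 0.14). The difference between the ages was -1.33 ± 0.37 and did not pass (limma, adjusted p = 0.0803), nor did any other member, against 0.645% of all rows. Its paralog wnt4b had differences of -0.01 (95% interval -0.88 to 0.86) and 0.29 (-0.55 to 1.13).

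Other ligands had positive differences that passed at neither age. wnt2ba, a Wnt2b ligand, ran from 7.21 through 8.04 to 9.84 in the 14 dpf morphants and from 5.10 through 6.98 to 9.09 in wild types. All 9 morphants were above the wild-type median, and so were all 10 at 22 dpf. Its differences were 1.18 ± 0.36 (limma, adjusted p = 0.0618) and 0.76 ± 0.35 (limma, adjusted p = 0.306), and the 14 dpf difference was 0.30 in the lower and 2.19 in the higher title numbers. wnt11r, of the Wnt11 family that acts mainly without β-catenin, ran from 12.37 through 12.85 to 13.60 in the 14 dpf morphants and from 12.05 through 12.41 to 12.99 in wild types. At 22 dpf all 10 morphants lay above the wild-type median, and its differences were 0.43 ± 0.15 and 0.40 ± 0.14 (limma, adjusted p = 0.106 and 0.123). The row wnt11, which may be this gene or wnt11f2, had -0.08 and -0.06.

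Another Wnt2b ligand, wnt2bb, which zebrafish need for liver specification, was listed from 4.24 through 5.56 to 7.53 in the 22 dpf morphants and from 4.49 through 4.94 to 5.44 in wild types. Of 10 morphants 5 lay above every wild type, and the difference of 0.80 ± 0.28 did not pass (limma, adjusted p = 0.114). For wnt16 the 14 dpf difference was 0.62 (95% interval 0.12 to 1.12), and for wnt5b, a ligand of cell movement, the 22 dpf difference was -0.77 (-1.71 to 0.16). Of the 23 ligands 12 had a mean below 6, in the low part of the scale, where an array resolves little.

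Among the receptors, fzd8a rose in the 14 dpf morphants. Frizzled 8 is a seven-pass receptor that pairs with Lrp5 and Lrp6 in canonical signalling. Its values ran from 7.46 through 8.08 to 9.16 in morphants and from 4.86 through 6.89 to 8.29 in wild types. All 9 morphants exceeded the wild-type median and 9 of 14 wild types lay below the lowest morphant, and 2 morphants exceeded every wild type. These 2 were arrays 5 and 13, an alike pair (r = 0.765) that may not be independent. Array 5 lies in the lower and array 13 in the higher title numbers, so the differences within these may not be independent either. The difference was 1.23 ± 0.32, or 2.35-fold (limma, adjusted p = 0.0255), and 0.96 and 1.49 within the lower and higher title numbers. It lost the call with alike pairs averaged (1.14, adjusted p = 0.0784), with the 14 dpf arrays fitted alone (adjusted p = 0.0921), and without morphant array 5 or 13.

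At 22 dpf fzd8a ran from 4.92 through 6.43 to 7.74 in morphants and from 4.90 through 6.14 to 7.11 in wild types, with 8 of 10 morphants above the wild-type median. The difference was 0.45 (95% interval -0.17 to 1.07). The paralog fzd8b had -0.10 and -0.33, neither passing.

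Most Frizzled rows had differences above 0. Of 12, 8 had a difference above 0 at 14 dpf and 10 at 22 dpf, 8 of them at both ages, while 48.8% and 55.2% of all rows did so at the respective ages and 9669 of 31475 at both. Of these 12 rows 2 name the same gene. The gene fzd1, in the row zgc:194761, did not match the name rule and was counted with the other pathway genes. fzd2, a receptor for canonical and polarity ligands, ran from 11.58 through 12.40 to 12.86 in the 14 dpf morphants and from 9.01 through 11.87 to 12.41 in wild types. At 22 dpf all 10 morphants lay above the wild-type median. Its differences were 0.76 ± 0.32 and 0.79 ± 0.31 (limma, adjusted p = 0.21 and 0.2). fzd9 and fzd9b both name the gene fzd9b and differed by 1.27 ± 0.40 and 0.50 ± 0.46 at 14 dpf, and by 0.51 ± 0.39 and 0.66 ± 0.44 at 22 dpf, none passing. fzd6, of the polarity branch, was the lowest-p receptor below 0 at 14 dpf, with -0.35 (95% interval -0.65 to -0.04) and all 9 morphants below the wild-type median, and had 0.06 at 22 dpf. For the co-receptor lrp6 the 95% intervals were -0.40 to 0.32 and -0.43 to 0.28, with group means of 5.17 to 5.55, in the low part of the scale.

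None of the 9 secreted inhibitors passed at either age. Their median difference was 0.47 at 14 dpf and 0.24 at 22 dpf, against -0.01 and 0.04 over all rows. An unadjusted p below 0.05 was reached by 4 and 1 of the 9, against 16.7% and 13.9% of all rows. Among the 4 at 14 dpf was dkk3 (0.61), an older name of dkk3a and dkk3b, so it may share a gene with the row dkk3b. dkk1a, which blocks Lrp5 and Lrp6, ran from 7.999 through 9.15 to 9.50 in the 14 dpf morphants and from 5.48 through 7.83 to 9.74 in wild types. All 9 morphants exceeded the wild-type median, and the difference was 1.00 ± 0.36 (limma, adjusted p = 0.122). sfrp2, a secreted decoy for Wnt proteins, ran from 11.80 through 12.82 to 13.29 in the 22 dpf morphants and from 10.98 through 12.23 to 13.02 in wild types. With 8 of 9 and 9 of 10 morphants above the wild-type median, its differences were 0.47 ± 0.20 and 0.53 ± 0.19 (limma, adjusted p = 0.193 and 0.129). sfrp1b, another decoy, had 0.82 and 0.40.

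The 4 R-spondins, which keep Wnt receptors on the cell surface, had no call. rspo1, which in mammals is needed for the ovary, ran from 11.25 through 11.86 to 12.19 in the 14 dpf morphants and from 9.83 through 11.25 to 12.42 in wild types. All 9 morphants exceeded the wild-type median there, with a difference of 0.54 ± 0.20 (limma, adjusted p = 0.139). At 22 dpf the rspo1 groups overlapped throughout, with 0.17 (95% interval -0.22 to 0.56). The others lay between -0.42 and 0.26 at 14 dpf and between 0.06 and 0.52 at 22 dpf.

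No cytoplasmic or nuclear effector passed at either age. axin1, a scaffold of the complex that destroys β-catenin, ran from 7.83 through 8.06 to 9.26 in the 22 dpf morphants and from 6.67 through 7.64 to 8.54 in wild types. All 10 morphants exceeded the wild-type median, and the differences were 0.48 ± 0.24 at 14 dpf and 0.59 ± 0.23 at 22 dpf (limma, adjusted p = 0.305 and 0.193). The dishevelled row dvl1a had 0.83 and 0.55, while dvl3 and dvl3a, which both name the gene dvl3a, had -0.04 and 0.09 at 14 dpf and 0.51 and 0.18 at 22 dpf. nkd3l, of the naked cuticle family that restrains dishevelled, had -0.70 (95% interval -1.43 to 0.03) at 22 dpf.

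The feedback genes axin2, lef1 and nkd1, singled out after their values were seen, did not pass at either age. Of a separate list of 18 Wnt targets 1 was called at each age, against 2.48% and 3.49% of all rows. These were myca, higher at 14 dpf, and msgn1, lower at 22 dpf, both given with the other pathway genes. axin2, a feedback target of β-catenin, ran from 7.54 through 7.88 to 8.29 in the 14 dpf morphants and from 7.71 through 8.04 to 8.87 in wild types. The groups overlapped at both ages, with 3 wild types above every morphant at 14 dpf. Its differences were -0.16 (95% interval -0.46 to 0.15) and 0.08 (-0.22 to 0.38). lef1, both a nuclear effector and a target, had 0.01 (95% interval -0.61 to 0.63) and -0.01 (-0.61 to 0.59). Its 14 dpf difference was 0.81 within the lower (5 morphants, 7 wild types) and -0.80 within the higher title numbers (4 and 7). At 22 dpf these lef1 differences were 0.10 and 0.12. Whether the lef1 difference depended on title number was not tested. The target nkd1 had 0.12 (95% interval -0.47 to 0.72) and -0.10 (-0.68 to 0.48). Its group means, 5.71 to 5.93, lie in the low part of the scale, where signal over background is unknown. The β-catenin rows ctnnb1 and ctnnb2 had -0.01 and -0.02 at 14 dpf and 0.11 and 0.02 at 22 dpf, with all interval bounds between -0.39 and 0.48. The transcript says nothing of the amount of β-catenin protein. ctnnbip1, which keeps β-catenin off Tcf factors, had 0.24 and 0.30, and the repressor tcf7l1a -0.21 and -0.32, with all 10 morphants below the wild-type median at 22 dpf (limma, adjusted p = 0.38). ctnnbl1, taken by its name alone and known from splicing, had 0.11 and 0.24.

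When the effects of both ages were averaged, a contrast added after each age had been seen, 8 of 70 members passed, 7 higher and 1 lower, against 6.27% of all rows (2.73% higher, 3.54% lower). The lower one was wnt8-2 (-1.39, limma, adjusted p = 0.00608). Those that rose were the ligands wnt11r (0.42 ± 0.10, limma, adjusted p = 0.00791) and wnt2ba (0.97 ± 0.25, adjusted p = 0.0118), the receptors fzd8a (0.84 ± 0.22, adjusted p = 0.0134), fzd2 (0.77 ± 0.23, adjusted p = 0.0285) and fzd9 (0.89 ± 0.28, adjusted p = 0.0433), the decoy sfrp2 (0.50 ± 0.14, adjusted p = 0.0171) and axin1 (0.53 ± 0.17, adjusted p = 0.0437). With alike pairs averaged fzd2, fzd9 and axin1 lost the call, and fzd9 lost it also under the title-number block and without the 22 dpf morphant arrays 1 and 2. At each age separately, 5 members had an unadjusted p below 0.05 in the same direction at both, namely fzd2, fzd7b, sfrp2, wnt11r and wnt2ba, all higher, or 7.14% against 2.72% of all rows. The 2 ages hold different arrays.

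**Figure D4:**
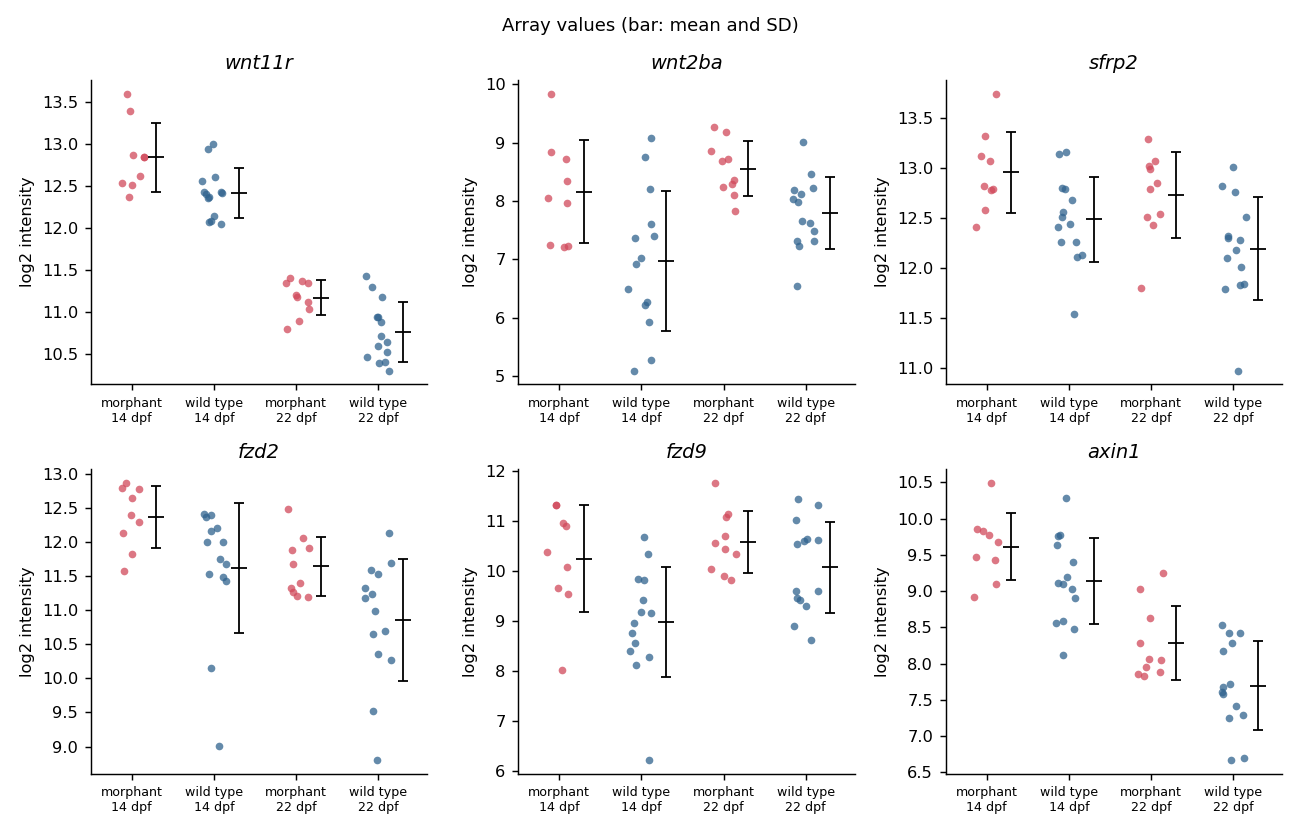
Log2 intensity on each array (points) with the group mean and SD (bars) for 6 rows that rose in the mean of both ages, morphants in red and wild types in blue. Morphant means lie above wild-type means at both ages in every panel, and the points overlap.

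**Figure D5:**
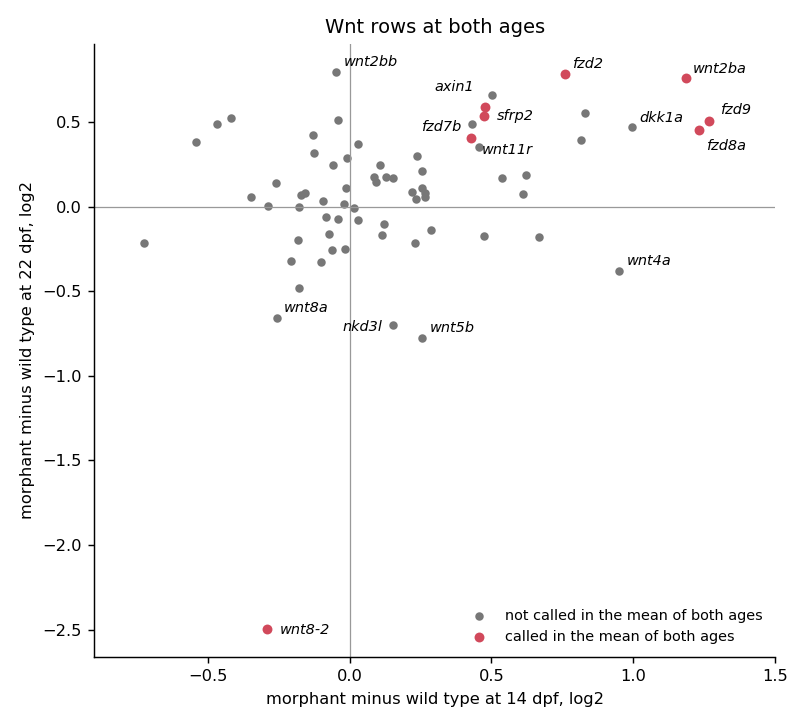
Log2 difference of morphant minus wild type at 22 dpf against that at 14 dpf for the 70 Wnt rows, with the 8 rows called in the mean of both ages in red. wnt8-2 lies alone at -0.29 and -2.50, the 7 rows called higher lie at the upper right, and wnt4a lies at 0.95 and -0.38.

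Over all 70 members the median difference was 0.10 at both ages, against -0.01 and 0.04 over all rows. Above 0 lay 40 (57.1%) and 46 (65.7%) members. With only rows of a mean of at least 6 kept, the median of the 49 members left was 0.23 at 14 dpf and 0.19 at 22 dpf. Over all rows kept it was -0.01 and 0.06. At an unadjusted p below 0.05 stood 15 members (21.4%) at 14 dpf and 11 (15.7%) at 22 dpf, against 16.7% and 13.9% of all rows. Leukocyte markers were higher in the 14 dpf morphants, 3 of 17 rows called, with a mean level of 8.66 to 9.47 against 7.99 to 9.01 in wild types. At 22 dpf 4 of 15 exocrine pancreas markers were called higher (8.47 to 13.43 against 8.23 to 13.35) and 3 of 10 adipose markers (6.63 to 7.45 against 6.48 to 7.02). Their part in the Wnt differences was not tested.

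Of 80 other measured Wnt pathway genes, 2 were called at 14 dpf and 2 at 22 dpf, near the 2.48% and below the 3.49% of all rows. Their median differences were 0.06 and 0.09, against -0.01 and 0.04 over all rows. At 14 dpf the secreted decoy frzb rose by 0.87 ± 0.25 (limma, adjusted p = 0.0455), with all 9 morphants above the wild-type median, and the Myc gene myca, a target of many growth signals, by 1.16 ± 0.29 (adjusted p = 0.0202), with 6 of 9 morphants above every wild type. The call of frzb was lost in 4 of 8 other settings: alike pairs averaged, array weights, the 14 dpf arrays fitted alone, and without the 22 dpf morphant arrays 1 and 2. At 22 dpf rhoab, a small GTPase of the polarity branch, rose by 0.50 ± 0.14 (limma, adjusted p = 0.035), and all 10 morphants lay above the wild-type median, but this call was lost with the pairs averaged and without the morphant arrays 1 and 2.

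msgn1, a mesoderm factor downstream of embryonic Wnt8, was lower in the 22 dpf morphants. It ran from 4.29 through 5.56 to 6.05 in morphants and from 4.91 through 6.93 to 8.35 in wild types, and 11 of 14 wild types lay above every morphant. Its mean over all arrays was below 6, in the low part of the scale, where signal over background is unknown. The difference was -1.42 ± 0.29 (limma, adjusted p = 0.000918), -2.11 within the lower and -0.80 within the higher title numbers. Its slope on the oocyte markers among wild types was 0.38 (limma, adjusted p = 0.0312), a call lost with alike pairs averaged (adjusted p = 0.116). The slope of cby1, another of the 80 genes, passed too (0.32, limma, adjusted p = 0.0374), and not with pairs averaged (adjusted p = 0.0775). Of all rows 3.33% passed, and 1.78% with pairs averaged. In the mean of both ages 3 of the 80 genes passed, against 6.27% of all rows. They were the polarity genes prickle1b and prickle2, with 0.46 and 0.50, and myca, with 0.68. With alike pairs averaged 0 of the 80 genes passed.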

How the data were processed

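The authors' deposited table holds log2 intensities, 1 value per row for each of 47 Cy3 arrays of whole-transcriptome amplified RNA. The submitters' processing notes name RMA without a version. The labels call arrays biological replicates without saying whether each is 1 fish or a pool, so p-values measure the spread between arrays. Labels state 10 replicates of the 14 dpf morphants, of which 9 arrays were analysed here. Arrays have no read depth, and their number limits the precision.

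Groups came from the labels. One model of 4 group means was fitted with limma 3.58.1 (R 4.3.3), eBayes and 43 residual degrees of freedom, with no filter, and adjusted p-values over all rows. Levels were not compared between ages, which may have been normalized separately. Title numbers up to 12 and above stood as a possible batch. Of the 70 row names 65 are current symbols and 5 older ones, and 4 are also older names of another gene. Correlations used permutation tests (scipy 1.17.1). The fit was tested on simulated data with independent arrays, so that test did not cover alike pairs.

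Members, marker lists and pathway lists were chosen with earlier results of these data known. Named genes were those called at either age or in the difference (also with pairs averaged or each age alone), the 3 smallest p per role and age, rows sharing a gene and called genes of the other lists, and those called in the mean of both ages, axin2, lef1, nkd1, both β-catenins, wnt8a, wnt4b, wnt5b, wnt16, wnt11, fzd8b, fzd9b and lrp6 were added after values were seen. Alternatives averaged the alike pairs, fitted each age alone, centred arrays, blocked on title numbers, filtered dim rows, used a trended variance or array weights, or left out arrays. Sequences were not used here.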

Additional observations from a re-analysis of the deposited data

Results flagged for a closer look

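In 4 of 68 tested groups of the 34 named rows, 1 array stood apart from the rest of its group by Dixon's test. Chance gives this in about 1 of 20 groups. Not all 4 groups of each row were tested. dvl1a was 10.4 on morphant array 1 at 14 dpf (nearest other 8.79) and 9.70 on morphant array 18 at 22 dpf (nearest 8.03). nkd2b was 7.92 on morphant array 1 at 14 dpf (nearest 6.12). msgn1 was 6.92 on morphant array 4 at 14 dpf (nearest 5.56).

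The effect of msgn1 differed between the ages, by -1.68 (22 dpf effect minus 14 dpf effect, limma, adjusted p = 0.0425), with -1.42 at 22 dpf and 0.25 at 14 dpf. This call was lost with alike pairs averaged and without the 22 dpf morphant arrays 1 and 2.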

How the results depend on the processing

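The 22 dpf difference of wnt8-2 kept its call in all 8 other settings (-2.57 to -2.24, limma, adjusted p from 0.000159 to 0.0103) and without any single array (-2.69 to -2.27). The 2 calls at 14 dpf were less stable: 0 members were called with alike pairs averaged and with each age fitted alone, 1 with array weights, and 0 to 4 without single arrays (0 without morphant array 5 or 13, 4 without wild-type array 12). At 22 dpf array weights gave 4 (adding sfrp2, wnt11r and wnt2bb) and single arrays left out gave 1 to 3 (3 without morphant array 18). In the difference between ages 1 member, against 0, was called under the title-number block and array weights, and 0 to 1 without single arrays. Centring, the block and the filter each gave 3 members at 14 dpf. In the mean of both ages pairs averaged gave 5 against 8, centring 11, trended variance 10, the filter 9, leaving out the 22 dpf morphant arrays 1 and 2 gave 7, and single arrays left out 6 to 10. The slope on oocyte markers called 1 to 2 members. Of 47 fits that left out 1 array, 11 lost the call of wnt4a at 14 dpf, 15 that of frzb, 9 that of rhoab, 23 and 24 those of axin1 and fzd9 in the mean, and 1 (without morphant array 13) that of myca.

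All-row calls at 14 dpf were 400 with pairs averaged, 195 with the age alone and 498 to 1065 without single arrays, against 780, and at 22 dpf 667 with pairs averaged, 1753 with array weights and 897 to 1283 without single arrays, against 1097. Centring arrays on their median changed the split at 14 dpf to 328 lower of 821, against 418 of 780, while the median of all rows moved by under 0.1. Other pathway calls at 14 dpf were 1 with pairs averaged, array weights, the age alone or without the 22 dpf morphant arrays 1 and 2, and 0 to 2 without single arrays, against 2. At 22 dpf they were 1 with pairs averaged, the filter or without those arrays, 4 with array weights and 1 to 3 without single arrays.

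Uncalled differences near 0 changed sign: centring gave dvl3 0.0070 and wnt2bb 0.0024 at 14 dpf; tcf7l1b at 22 dpf was -0.058 under the block and -0.046 with weights; ctnnbl1 at 14 dpf was -0.052 with weights; the mean of rspo4 was -0.11 with pairs averaged and -0.14 without arrays 1 and 2; rhoab at 14 dpf was -0.018 with pairs averaged. Without single arrays the ranges crossing 0 were -0.20 to 0.074 (dvl3), -0.069 to 0.41 (nkd3l), -0.042 to 0.18 (ctnnbl1), -0.19 to 0.097 (wnt2bb) and -0.033 to 0.085 (rhoab) at 14 dpf, -0.25 to 0.013 (tcf7), -0.064 to 0.10 (tcf7l1b) and -0.012 to 0.12 (rspo2) at 22 dpf, and -0.21 to 0.0068 (nkd2b) and -0.066 to 0.17 (rspo4) in the mean. The cause of these changes was not tested. No paired analysis was possible because morphants and wild types of an age share no title numbers. Of the members 21 had a mean below 6, where signal over background is unknown.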
